A study of Homo sapiens with 2 samples.

Results

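The HOX cluster genes are the protein-coding genes of the 4 human HOX clusters, HOXA, HOXB, HOXC and HOXD. They were taken from the deposited count tables by gene type and by name, a cluster letter followed by a number. The rule found 39 genes of the 58735 listed, 11 in HOXA, 10 in HOXB, 9 in HOXC and 9 in HOXD. On GRCh38 their spans are chr17:48528526-48729178 for HOXB, read from the minus strand, and chr12:53938765-54056030 for HOXC and chr2:176092891-176190907 for HOXD, both read from the plus strand, and HOXA lies on the minus strand of chromosome 7. RNA sequencing covered 1 library of BHT101 cells labelled as overexpressing SETDB2 and 1 control library of the same line, with 34053348 counts in the SETDB2 library and 33572025 in the control library. BHT101 is an established line from a human anaplastic thyroid carcinoma. Both cultures were grown in DMEM with fetal bovine serum and pyruvate. The vector, its promoter, the time after its introduction and whether the cells were a clone or a pool are not stated in the labels used here. SETDB2 is classed as a SET domain enzyme that methylates lysine 9 of histone H3, and the series is about its effect on the splicing factor U2AF1.

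HOX genes encode homeodomain transcription factors that give cells their place along the head-to-tail axis of the embryo. Within a cluster they lie in the order of their paralog numbers, and low-numbered genes act nearer the head than high-numbered ones. Trithorax proteins such as the MLL methyltransferases keep active HOX genes on, polycomb complexes keep silent ones off, and retinoic acid switches on the low-numbered end. Many adult tissues and tumour lines keep a HOX pattern of their own. In mouse, Hoxa3 is needed for the thymus, the parathyroid and the normal thyroid.

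SETDB2 had 1370 counts in the SETDB2 library and 507 in the control library, a log2 ratio of 1.43 (95% interval 1.28 to 1.58), in the direction of the label. U2AF1, which has a near-identical annotated copy that makes its count uncertain, had 377 counts in the SETDB2 library and 1447 in the control library, a log2 ratio of -1.95 (-2.11 to -1.78). With 1 library per group there is no replicate check, no test and no p-value for any difference here, and each interval covers counting error only. Thyroid markers were low: TG had 2 counts in the SETDB2 library and 6 in the control library, and NKX2-1 had 0 in both. HHEX had 197 counts in the SETDB2 library and 188 in the control library, and the 8 thyroid markers summed to 2.54 FPKM (counts per gene length and library size) in the SETDB2 library and 2.57 FPKM in the control library. The 5 leukocyte markers had at most 3 counts each. Of the 3 endothelial markers, PECAM1 had 74 counts in the SETDB2 library and 110 in the control library, and CDH5 had 0 in both. Of the 4 epithelial markers, KRT8 had 33986 counts in the SETDB2 library and 32748 in the control library, KRT18 had 13213 and 12729 and EPCAM had 549 and 493 in the same order of libraries. CDH1, the epithelial cadherin, was lower, with 98 counts or 0.469 FPKM in the SETDB2 library and 121 counts or 0.579 FPKM in the control library. Of the 4 fibroblast markers, COL1A1 had 1126 counts in the SETDB2 library and 535 in the control library, while COL3A1 had 0 in the SETDB2 library and 1 in the control library. The summed level of the 4 was 3.46 FPKM in the SETDB2 library and 1.72 FPKM in the control library, and its part in the HOX values was not tested.

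The clusters also carry microRNA genes, and these short RNAs have known partners among the HOX genes. The mature sequences are shown because the miR-196 forms pair almost fully with a member that was counted here. They come from RefSeq on GRCh38.p14 and are written 5′ to 3′, with the seed, bases 2 to 8, in capitals.
hsa-miR-196a-5p: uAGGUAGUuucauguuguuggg
hsa-miR-196b-5p: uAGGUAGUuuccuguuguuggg
hsa-miR-10a-5p: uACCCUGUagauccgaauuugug
The miR-196 forms share the seed AGGUAGU, and miR-10a-5p has a different one. A search of the annotated HOX transcripts for the best pairing with miR-196a-5p found a site in the 3′ UTR of HOXB8 at chr17:48612770-48612791 on the minus strand of GRCh38, where capitals mark Watson-Crick pairs.
HOXB8 site: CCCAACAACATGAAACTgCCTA
There, 21 of the 22 bases of miR-196a-5p were in Watson-Crick pairs, 1 was in a G:U pair and 0 were unpaired. For miR-196b-5p the best match was also in HOXB8, with 20 Watson-Crick pairs, 1 G:U pair and 1 unpaired base. The next best members for miR-196a-5p, HOXA7 and HOXA9, reached 15 Watson-Crick pairs. HOXB8 is the textbook example of an animal microRNA target that pairs closely enough to be cut. HOXB8 had 138 counts in the SETDB2 library and 103 in the control library, a log2 ratio of 0.41 (0.04 to 0.80). The MIR196A1 hairpin had 10 counts in the SETDB2 library and 29 in the control library, a log2 ratio of -1.5 (-2.74 to -0.46). Its summed count was 39, and among genes with a summed count of 10 to 49, 10.8% were at least 2-fold lower with an interval below equality. The hairpin was picked out after its counts were seen, and a link to HOXB8 was not tested. It lies within the spans of HOXB7 and HOXB-AS4 outside their exons, so reads of their unspliced transcripts cannot be told apart from it, and a library of this kind does not measure the mature form. The hairpins MIR196A2, MIR196B, MIR10A, MIR10B and MIR615 had 0 counts in both libraries.

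The members fell into 3 classes by depth. In 14 of the 39 the counts of both libraries summed to at least 50, a limit that does not look at how the counts are split between the libraries. A further 11 had a count but stayed below that limit, and 14 had 0 counts in both libraries. A count of 0 allows up to 3 counts per library, which for HOXA13 is 0.0175 FPKM in the SETDB2 library and 0.0174 FPKM in the control library. FPKM here is the deposited count divided by gene length and by 1 constant per library, so it allows levels to be compared between genes and adds no measurement of its own. A level of at least 1 FPKM in both libraries was found for 9 members, HOXA3 and the 8 genes from HOXB2 to HOXB9. Among all 19951 protein-coding genes the share at that level was 51.7%.

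**Figure D1:**
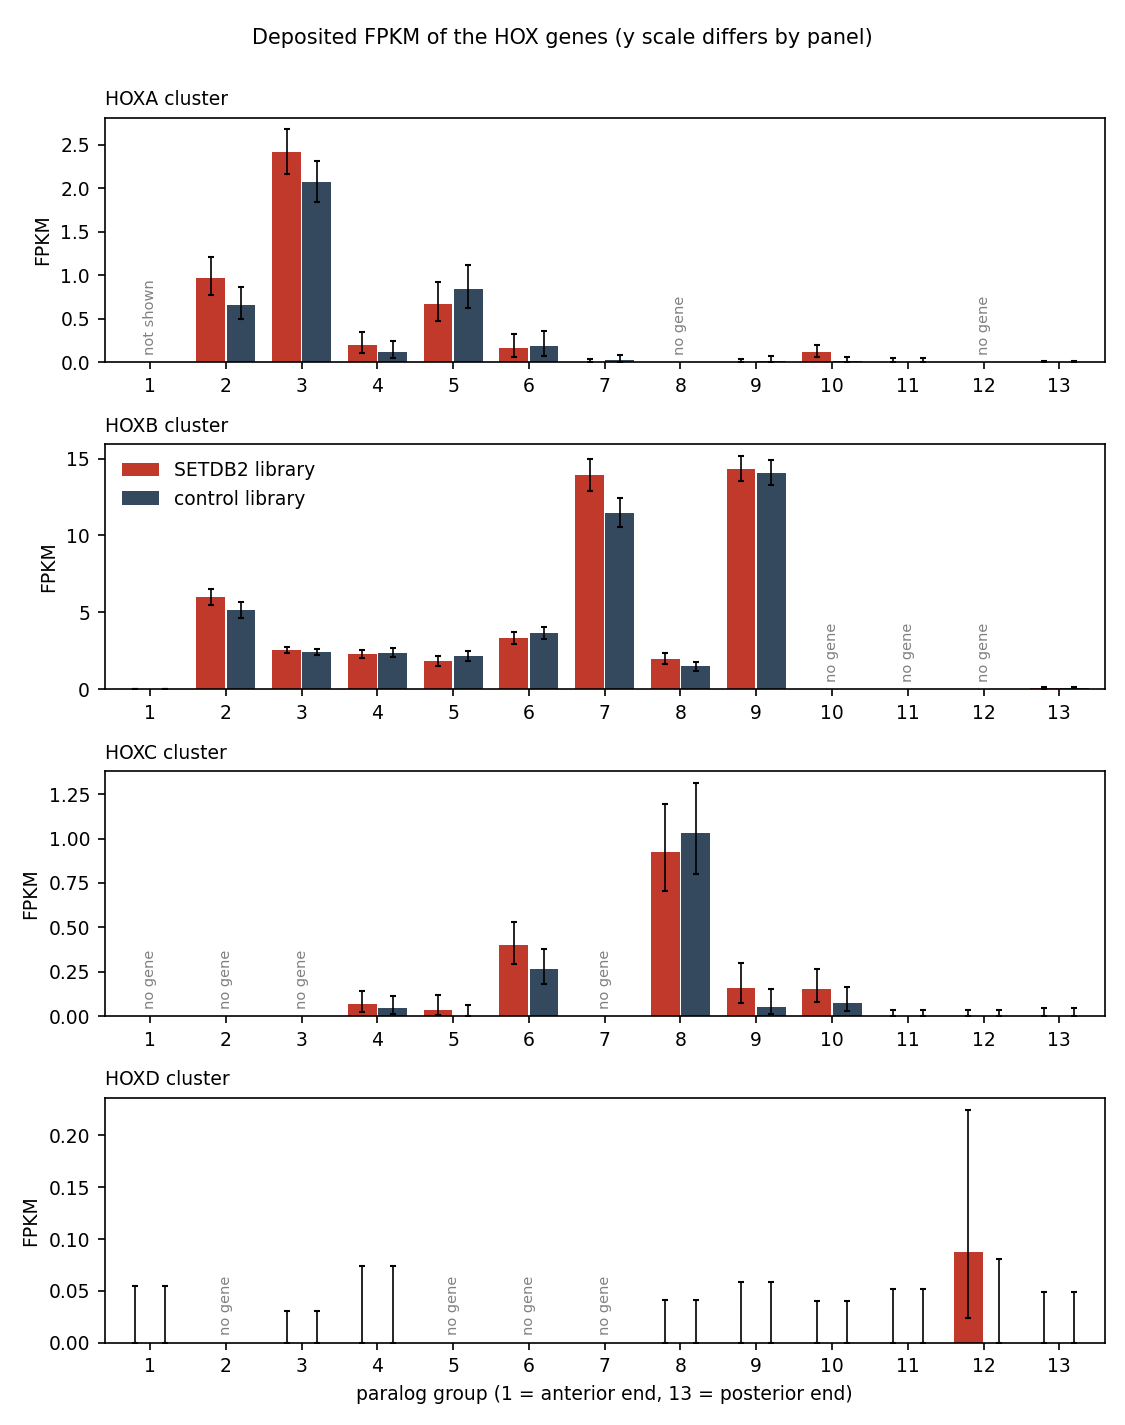
Deposited FPKM of 38 of the 39 HOX genes in the SETDB2 library and the control library, 1 panel per cluster with its own y scale, in paralog order; bars are single libraries and error bars are 95% Poisson counting intervals. HOXB9 and HOXB7 stand highest, while HOXD holds a signal for HOXD12 alone.

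HOXB held most of the HOX signal. Its members summed to 46.3 FPKM in the SETDB2 library and 42.9 FPKM in the control library, and held 84.79% of all HOX counts in the SETDB2 library (exact binomial interval 83.72 to 85.81%) and 86.45% in the control library (85.39 to 87.46%). HOXA summed to 5.27 FPKM in the SETDB2 library and 4.49 FPKM in the control library, with 12.2% of the HOX counts in the SETDB2 library (11.27 to 13.18%) and 10.97% in the control library (10.06 to 11.95%). HOXC summed to 1.73 FPKM in the SETDB2 library and 1.47 FPKM in the control library, with 2.93% of the HOX counts in the SETDB2 library and 2.58% in the control library. HOXD had 4 counts in all in the SETDB2 library and 0 in the control library. The order HOXB, HOXA, HOXC, HOXD was the same in both libraries, and the intervals of the shares did not overlap between clusters.

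Within HOXB, HOXB9 and HOXB7 were far above the other members. HOXB9 (ENSG00000170689), a posterior-type member known for roles in the rib cage and mammary gland of the mouse, had 1252 counts or 14.4 FPKM in the SETDB2 library and 1229 counts or 14.1 FPKM in the control library. HOXB7 (ENSG00000260027), often studied in carcinomas, had 718 counts or 13.9 FPKM in the SETDB2 library and 593 counts or 11.5 FPKM in the control library. HOXB9 ranked 3159th among protein-coding genes in the SETDB2 library and 3145th in the control library. HOXB2, a hindbrain gene, came next with 472 counts or 5.98 FPKM in the SETDB2 library and 406 counts or 5.14 FPKM in the control library. HOXB3 had more reads than HOXB2, 644 in the SETDB2 library and 613 in the control library, but a lower level per length of 2.56 FPKM in the SETDB2 library and 2.43 FPKM in the control library, its length in the tables being 7456 bases against 2336 for HOXB2. HOXB4, known for expanding blood stem cells, had 287 counts in the SETDB2 library and 301 in the control library. HOXB5 and HOXB6 had 127 and 292 counts in the SETDB2 library, against 148 and 321 in the control library. The levels of HOXB4, HOXB5, HOXB6 and HOXB8 lay between 1.84 and 3.32 FPKM in the SETDB2 library and between 1.48 and 3.64 FPKM in the control library. The ends of the cluster were near or at 0. HOXB1, the retinoic acid responsive gene of the hindbrain, had 0 counts in both libraries, and HOXB13, a prostate gene far from the rest of the cluster, had 10 counts in the SETDB2 library and 12 in the control library.

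Within HOXA, the low-numbered genes carried most of the reads. HOXA3 (ENSG00000105997) held 61.9% of the HOXA counts in the SETDB2 library and 63.6% in the control library, with 351 counts or 2.41 FPKM and 301 counts or 2.07 FPKM in that order. HOXA2, which sets the identity of the second pharyngeal arch in the mouse, had 81 counts in the SETDB2 library and 55 in the control library. HOXA5, needed for lung formation in the mouse, had 39 counts in the SETDB2 library and 49 in the control library. The other HOXA genes had few counts. HOXA4 and HOXA6 had 12 and 7 counts in the SETDB2 library, against 7 and 8 in the control library. HOXA7 and HOXA9 each had 0 counts in the SETDB2 library and 2 in the control library, and HOXA11 and HOXA13 had 0 in both. HOXA10 had 15 counts in the SETDB2 library and 2 in the control library.

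In HOXC the reads came mainly from the centre of the cluster. HOXC8 had 59 counts in the SETDB2 library and 66 in the control library, and HOXC6 had 48 in the SETDB2 library and 32 in the control library. HOXC4 and HOXC5 had 6 and 2 counts in the SETDB2 library, against 4 and 0 in the control library. HOXC9 had 9 counts in the SETDB2 library and 3 in the control library, and HOXC10 had 12 in the SETDB2 library and 6 in the control library. HOXC11, HOXC12 and HOXC13 had 0 counts in both. In HOXD, 8 of the 9 genes had 0 counts in both libraries, among them the digit gene HOXD13, and HOXD12 had 4 counts in the SETDB2 library and 0 in the control library.

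**Figure D2:**
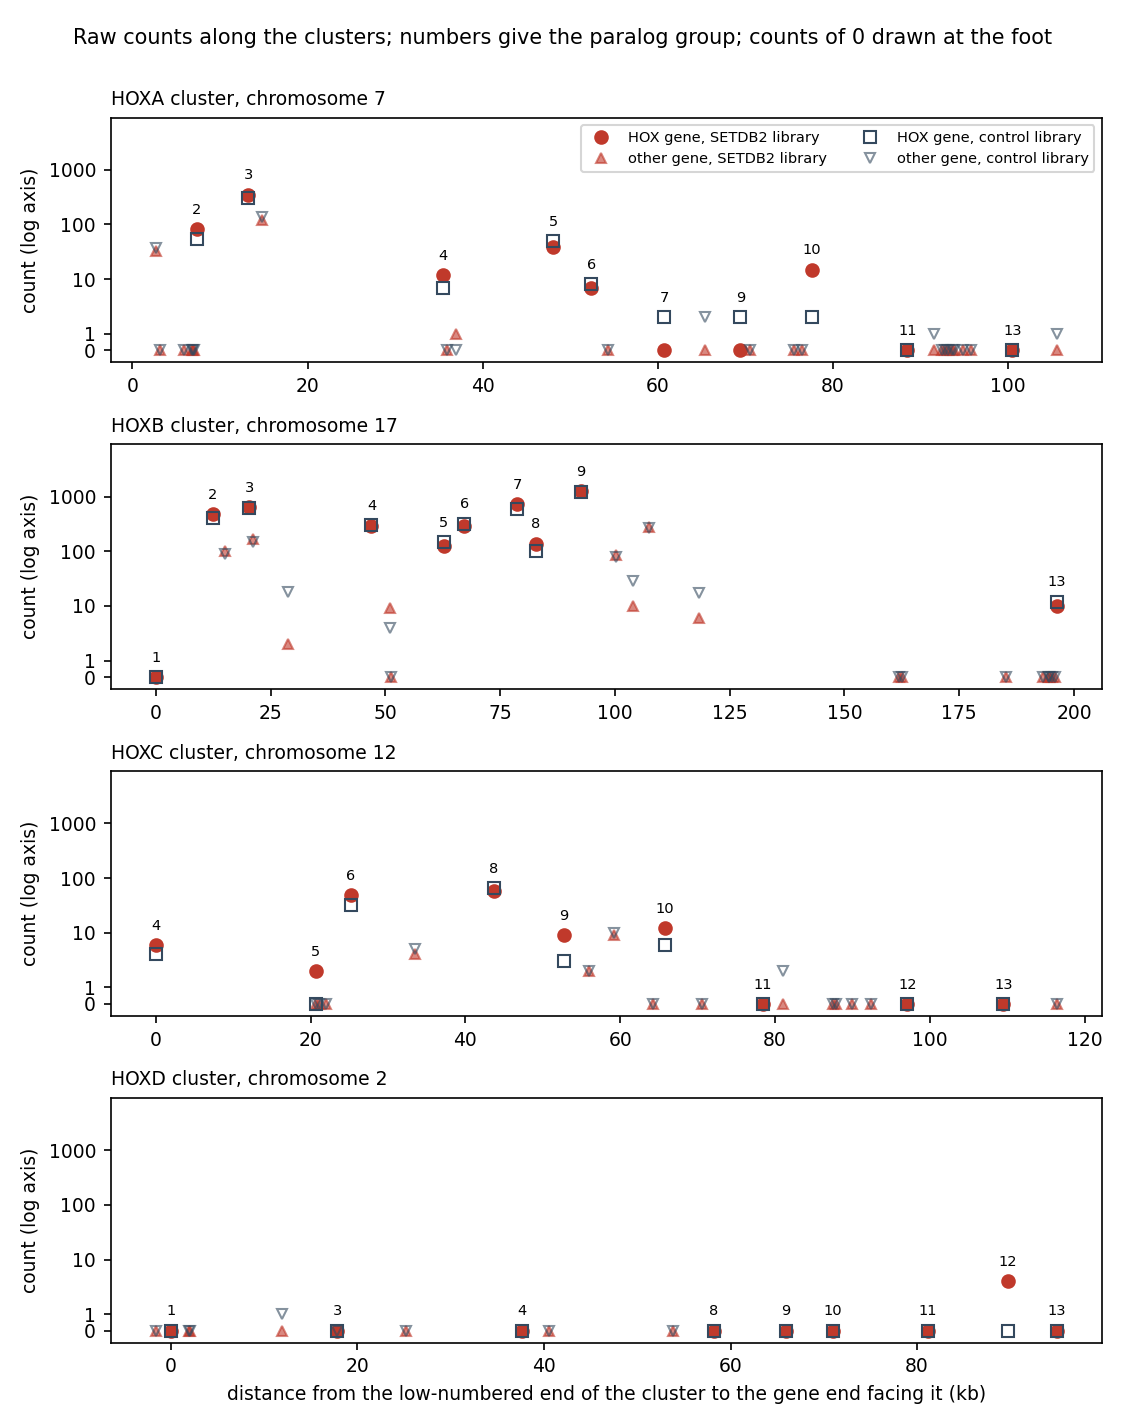
Raw counts on a log axis along each cluster, for 38 of the 39 HOX genes and the other genes within the spans, placed by the distance in kb from the low-numbered end of the cluster to the gene end that faces it; circles and upward triangles are the SETDB2 library, squares and downward triangles the control library, and numbers give the paralog group. Counts lie above 100 from HOXB2 to HOXB9 in both libraries, while HOXA has at most 15 counts from paralog group 6 on and HOXD is at 0 except for HOXD12.

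Between the libraries, none of the 14 members past the count limit met the rule of a ratio of at least 2-fold with an interval that excludes equality, in either direction. Over all 14859 genes past the same limit the rule was met by 2.62%, 1.04% higher and 1.57% lower in the SETDB2 library, so a count of 0 among 14 is close to the background. In the members' own range of summed counts, 80 to 2481, the share was 2.63% of 7977 genes. At 1.5-fold the members' count was also 0 in each direction, beside 2.99% higher and 4.97% lower over all genes. The log2 ratios of the 14 ran from -0.33 for HOXA5 to 0.57 for HOXC6, with a median of 0.14. The median was 0.0019 over all genes past the limit and -0.03 over genes in the members' count range, whose 10th and 90th percentiles were -0.47 and 0.38. Ratios were above 0 for 9 members and below 0 for 5, beside 46.3% above 0 in that range.

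**Figure D3:**
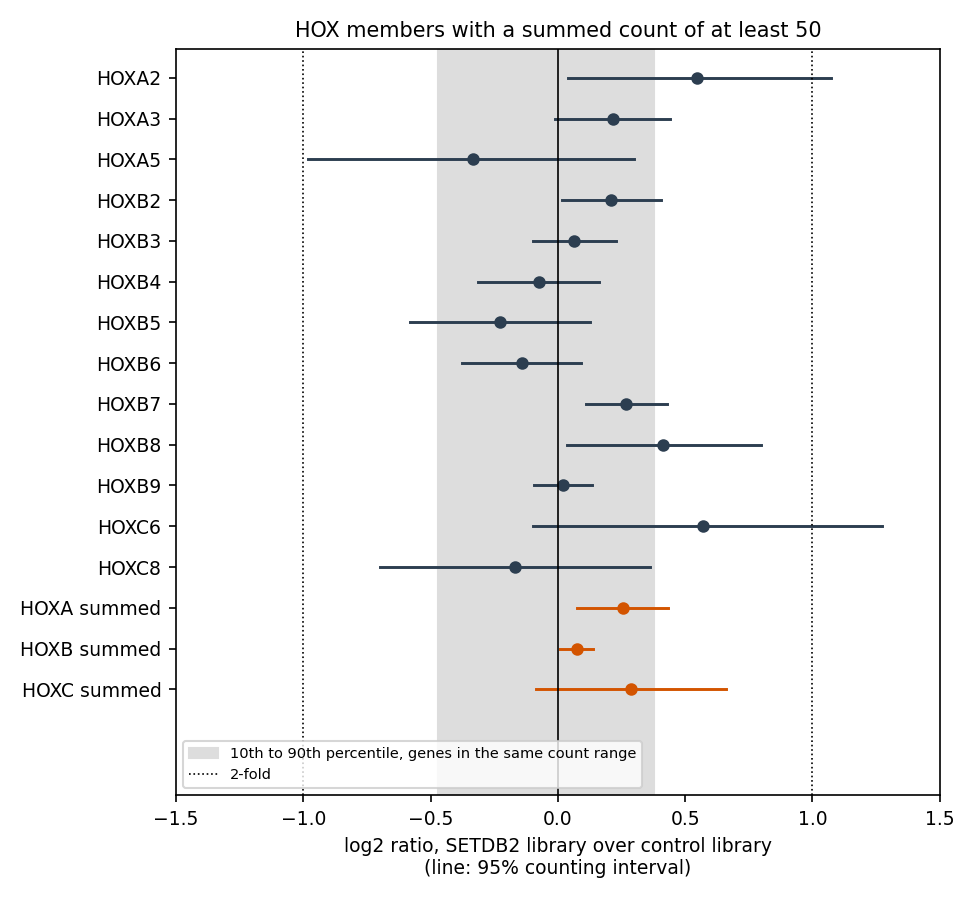
Log2 ratio (SETDB2 over control) for 13 of the 14 members past the count limit and for 3 clusters summed, with 95% counting intervals as lines; the grey band runs from the 10th to the 90th percentile of genes in the same count range and dotted lines mark 2-fold. All points lie within 2-fold, and the lines of HOXA2, HOXB2, HOXB7 and HOXB8 stay above 0.

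The counting interval lay wholly above 0 for 4 members, HOXA2, HOXB2, HOXB7 and HOXB8, wholly below 0 for none, and included 0 for 10. HOXA2 had a log2 ratio of 0.55 (0.04 to 1.07), HOXB2 of 0.21 (0.02 to 0.41) and HOXB7 of 0.27 (0.11 to 0.43). Such an interval lay above 0 for 18.6% and below 0 for 24% of the genes in the members' count range. HOXB9, the member with the most counts, had the narrowest interval, 0.02 (-0.09 to 0.13), so a difference of 1.5-fold between these libraries lay outside its interval. HOXB3 at 0.06 (-0.10 to 0.23) and HOXB4 at -0.08 (-0.31 to 0.16) were also centred near 0. HOXB5 was at -0.23 (-0.58 to 0.12) and HOXB6 at -0.14 (-0.38 to 0.09). HOXA3 was at 0.21 (-0.01 to 0.44), HOXA5 at -0.33 (-0.98 to 0.30), HOXC6 at 0.57 (-0.10 to 1.27) and HOXC8 at -0.17 (-0.70 to 0.36). For HOXA5, HOXC6 and HOXC8 the interval is wide enough to hold a difference of 1.5-fold as well as none.

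**Figure D4:**
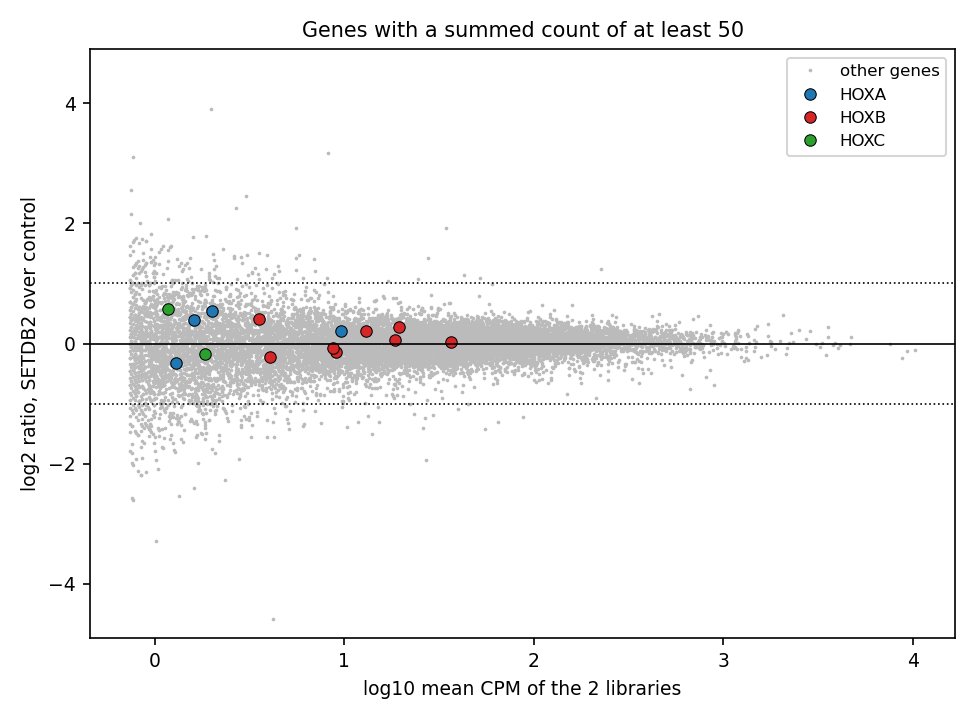
Log2 ratio (SETDB2 over control) against the log10 mean CPM (counts scaled to a common library total) of both libraries for all genes past the count limit of 50; each grey point is a gene, coloured points are HOX genes, and dotted lines mark 2-fold. The 14 HOX points lie between -0.33 and 0.57, within the cloud of other genes.

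Summed by cluster, HOXA had 567 counts in the SETDB2 library and 473 in the control library, a log2 ratio of 0.25 (0.08 to 0.43). HOXB had 3940 counts in the SETDB2 library and 3726 in the control library, a ratio of 0.07 (0.01 to 0.14), and HOXC had 136 in the SETDB2 library and 111 in the control library, a ratio of 0.29 (-0.09 to 0.66). For HOXD no ratio was formed. Of the differences between cluster ratios, HOXA minus HOXB was 0.18 (-0.01 to 0.37), HOXC minus HOXB 0.21 (-0.17 to 0.59) and HOXA minus HOXC -0.03 (-0.45 to 0.38), and all 3 intervals included 0. HOXC8, the top HOXC member, held 43.4% of the HOXC counts in the SETDB2 library and 59.5% in the control library. Its own ratio was -0.17 (-0.70 to 0.36), opposite in sign to the HOXC value. Without HOXC8 the HOXC value was 0.76 (0.22 to 1.33).

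By position, the members of paralog groups 1 to 3 were the anterior class, groups 4 to 8 the central class and groups 9 to 13 the posterior class. Anterior members summed to 1610 counts in the SETDB2 library and 1422 in the control library, a log2 ratio of 0.17 (0.07 to 0.28). Central members had 1735 counts in the SETDB2 library and 1634 in the control library, a ratio of 0.08 (-0.02 to 0.18), and posterior members had 1302 counts in the SETDB2 library and 1254 in the control library, a ratio of 0.05 (-0.07 to 0.16). The 3 intervals overlap. HOXB9 alone gave nearly all posterior counts. Within HOXA the anterior class was at 0.29 (0.09 to 0.48) and the central class at -0.19 (-0.73 to 0.34), and within HOXB they were at 0.12 (0.0008 to 0.25) and 0.08 (-0.02 to 0.19). The posterior classes of HOXA and HOXC had few counts and no member past the limit. HOXA posterior genes had 15 counts in the SETDB2 library, all from HOXA10, and 4 in the control library, a ratio of 1.78 (0.25 to 3.95). HOXC posterior genes had 21 counts in the SETDB2 library and 9 in the control library, a ratio of 1.17 (0.03 to 2.53), and HOXB posterior genes were at 0.02 (-0.10 to 0.13). Per paralog group, the level was highest in group 9, with 14.5 FPKM in the SETDB2 library and 14.1 FPKM in the control library, and in group 7, with 13.9 FPKM in the SETDB2 library and 11.5 FPKM in the control library. Group 2 reached 6.95 FPKM in the SETDB2 library and 5.80 FPKM in the control library, and all members of group 11 were at 0.

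The members below the count limit are given by raw counts. All 25 together had 77 counts in the SETDB2 library and 46 in the control library, a log2 ratio of 0.73 (0.19 to 1.30). HOXA10, a uterine and blood cell regulator, held much of that: 15 counts in the SETDB2 library and 2 in the control library, 6.18-fold or a log2 ratio of 2.63 (0.80 to 6.07). Without HOXA10 the other 24 had 62 counts in the SETDB2 library and 44 in the control library, 0.48 (-0.09 to 1.08), an interval that includes 0. Among genes with a summed count of 10 to 49, 9.68% were at least 2-fold higher in the SETDB2 library with an interval above equality, and 10.8% were lower. The 15 posterior members below the limit had 50 counts in the SETDB2 library and 25 in the control library, 0.98 (0.27 to 1.75), and 0.59 (-0.20 to 1.43) without HOXA10. These sums were formed after the counts were seen. All 7476 protein-coding genes below the limit had a summed ratio of -0.02. Being pooled over so many genes, that value does not show how far a sum of 25 genes can stray.

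Reads in the clusters are hard to assign, because HOX genes overlap each other and their antisense genes. The span of 33 members overlaps another annotated gene, and 14 members share no exonic base with another gene, among them HOXA2, HOXB7, HOXB8, HOXB9 and HOXC8. The strand setting of the counting is not given in the sources used, so antisense reads cannot be told apart from sense reads. HOXB6 shares 16.63% of its exonic bases with genes of the same strand and 16.32% with genes of the opposite strand. HOXA3 shares 9.24% and 15.37%, and HOXC5 shares 59.89% with genes of the same strand. HOXA10 shares 9.93% with genes of the same strand and 16.4% with genes of the opposite strand. Of the members with 0 counts in both libraries, HOXD4 and HOXD3 share 80.46% and 62.18% with genes of the same strand. HOXD1 shares 58.08% with genes of the opposite strand, and HOXA7, which had few counts, shares 62.51%. HOXD8, HOXD9 and HOXD13 share no exonic base. How reads in shared bases were counted is not known, so a low count is less certain where much is shared.

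Other genes within the cluster spans numbered 62, of which 19 had a count and 6 were past the limit, and none of the 6 met the 2-fold rule. AC103702.2, a lincRNA between HOXB9 and HOXB13, had 274 counts in the SETDB2 library and 269 in the control library. The antisense genes HOXB-AS3, HOXB-AS1 and HOXB-AS4 had 167, 103 and 85 counts in the SETDB2 library, against 150, 89 and 78 in the control library. HOXA-AS2 had 123 counts in the SETDB2 library and 134 in the control library, and HOTAIRM1, a myeloid antisense RNA of the HOXA cluster, had 33 in the SETDB2 library and 37 in the control library. Below the limit, HOXB-AS2 and LINC02086, picked out after their counts were seen, had 2 and 6 counts in the SETDB2 library, against 18 and 17 in the control library. The log2 ratio of HOXB-AS2 was -2.89 (-6.33 to -1.11) and that of LINC02086 -1.43 (-3.14 to -0.10), beside the 10.8% of genes in their range of summed counts, 10 to 49, that were lower by the 2-fold rule. HOTAIR had 0 counts in the SETDB2 library and 2 in the control library, and HOTTIP had 0 in the SETDB2 library and 1 in the control library.

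Outside the clusters, the 5 nearest protein-coding genes on each side gave 40 genes, 34 of them past the limit, and 1 met the rule. Over all genes past the limit 2.62% met it. SNX10, a sorting nexin of endosomes and the second protein-coding gene beyond the low-numbered end of HOXA, had 154 counts in the SETDB2 library and 68 in the control library, a log2 ratio of 1.17 (0.75 to 1.61). SKAP2, which lies between SNX10 and the cluster, was at 0.18 (0.11 to 0.25). The nearest genes of HOXB were SKAP1 at -0.48 (-0.82 to -0.13), a T cell adaptor, and TTLL6 with 10 counts in the SETDB2 library and 18 in the control library. Those of HOXC were CALCOCO1 at -0.33 (-0.42 to -0.23) and SMUG1, a DNA repair glycosylase, at -0.15 (-0.27 to -0.03). EVX1, a homeobox gene beyond HOXA13, had 4 counts in the SETDB2 library and 0 in the control library, EVX2 beyond HOXD13 had 0 in both, and MTX2 beyond HOXD1 was at 0.11 (0.01 to 0.22). Genes of the HP1 proteins, which bind methylated H3 lysine 9, were among the flanking genes of HOXA, HOXB and HOXC but not of HOXD. CBX3, 879.6 kb from HOXA, had 16638 counts in the SETDB2 library and 13556 in the control library, a ratio of 0.29 (0.26 to 0.32). CBX1 near HOXB was at 0.07 and CBX5 near HOXC at 0.09.

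HOX proteins bind DNA together with TALE homeodomain partners. Of 9 TALE cofactor genes, 8 were past the limit, none met the rule, and the median log2 ratio was 0.12. PBX4 had 114 in the SETDB2 library and 81 in the control library, 0.48 (0.06 to 0.92). PBX2, at the highest level of the list, had 10.3 FPKM in the SETDB2 library and 10.7 FPKM in the control library. MEIS3 was at -0.31 (-0.74 to 0.12), MEIS1 at 0.24 (-0.16 to 0.64), and PKNOX2 had 0 counts in both.

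The genes that hold HOX clusters on or off were expressed in both libraries and none met the rule. Of the 19 MLL and trithorax genes all were past the limit, with a median of -0.09, 3 intervals above 0 and 10 below. The H3K27 demethylases KDM6B and KDM6A were at -0.40 (-0.51 to -0.28) and -0.32 (-0.43 to -0.21). MLLT3 was at -0.27 (-0.51 to -0.02) and KMT2D at -0.26 (-0.30 to -0.21). Of the 20 polycomb genes all were past the limit, with a median of -0.01, 6 intervals above 0 and 7 below. BMI1 was at 0.35 (0.25 to 0.45), RBBP4 at 0.28 (0.23 to 0.34) and CBX7 at -0.28 (-0.50 to -0.06). Over all genes past the limit such intervals lay above 0 for 25.7% and below 0 for 24.1%. Genes with more counts have narrower intervals, and these shares were not matched to the counts of the trithorax and polycomb genes.

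Retinoic acid acts on the low-numbered HOX genes. Of the 17 retinoic acid pathway genes, 11 were past the limit, with a median of 0.02. By the rule 1 was lower, beside 1.57% of all genes past the limit, and none was higher, beside 1.04%. The lower one was CYP26B1, which breaks down retinoic acid, with 14 counts in the SETDB2 library and 55 in the control library, a log2 ratio of -1.94 (-2.94 to -1.11). DHRS3, which turns retinaldehyde back to retinol, was at -0.44 (-0.61 to -0.27). The retinaldehyde dehydrogenases ALDH1A3 and ALDH1A1 were at 0.37 (0.24 to 0.51) and -0.27 (-0.49 to -0.06). Of the 13 ParaHox and HOX-linked homeobox genes, 9 had 0 counts in both libraries and MNX1 alone was past the limit, with 36 counts in the SETDB2 library and 52 in the control library.

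Promoter sequences of 20 members were found in RefSeq on GRCh38.p14, in 27 entries. HOXA3 alone gave 7 of them and HOXA10 gave 2, and HOXC4 and HOXC5 share 1 window, so the entries are not separate promoters. Of the members past the count limit, HOXA2 and HOXA3 had an entry, and no gene from HOXB2 to HOXB9 did. The sequences were read from the 250 bases before the RefSeq start, which can differ from the gene start deposited with the counts. Those of 3 members are printed as cases of different kinds. HOXA2 had one of the higher ratios, HOXA10 the most uneven low counts, and HOXD8 had 0 counts in both libraries. CpG dinucleotides are in capitals. The windows are chr7:27102684-27102933 (minus strand), chr7:27179862-27180111 (minus strand) and chr2:176129455-176129704 (plus strand). By the gene positions deposited with the counts, the HOXA10 window lies wholly within HOXA10. The HOXA2 and HOXD8 windows reach partly into their genes.
HOXA2: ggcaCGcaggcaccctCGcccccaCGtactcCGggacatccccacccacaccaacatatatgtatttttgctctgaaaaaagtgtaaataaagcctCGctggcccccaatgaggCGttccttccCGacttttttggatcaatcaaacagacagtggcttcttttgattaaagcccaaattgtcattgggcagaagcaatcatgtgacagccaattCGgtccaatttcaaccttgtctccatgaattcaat
HOXA10: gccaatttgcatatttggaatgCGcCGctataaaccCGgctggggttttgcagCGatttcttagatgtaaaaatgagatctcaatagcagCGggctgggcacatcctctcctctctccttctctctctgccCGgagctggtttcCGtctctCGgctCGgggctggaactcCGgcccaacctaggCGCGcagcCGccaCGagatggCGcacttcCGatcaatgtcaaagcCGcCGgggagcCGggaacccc
HOXD8: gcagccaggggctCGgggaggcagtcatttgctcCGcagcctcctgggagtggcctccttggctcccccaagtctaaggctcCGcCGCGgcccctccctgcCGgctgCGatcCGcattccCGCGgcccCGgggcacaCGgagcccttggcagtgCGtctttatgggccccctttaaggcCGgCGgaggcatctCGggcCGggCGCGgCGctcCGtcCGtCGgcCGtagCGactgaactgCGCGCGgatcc
They hold 8, 19 and 28 CpG dinucleotides in that order. Over the 27 member entries the median ratio of observed to expected CpG was 0.89, against 0.56 over the 35116 promoters in the table, and 21 of the 27 reached 0.6, against 47.5% of all. The 10 members at 0 in both libraries that had an entry gave a median of 0.87 (range 0.29 to 1.06). The 8 entries of members past the count limit gave 0.6 (range 0 to 1.22), but they come from HOXA2 and HOXA3 only. Motifs were sought on either strand. CCAAT was in 18 of the 27 entries against 32.01% of all promoters, and in any entry of 17 of the 20 members against 37% of all symbols. TATAAA was in 5 entries, both of HOXA10 among them, against 10.72%. By member it was in 4 of the 20 against 13.05% of all symbols. TGATTNAT, a PBX-HOX motif, was in 2 entries, HOXA2 and HOXD11, against 2.48%. By member it was in 2 against 3.06% of all symbols. A match is a description of these letters and not a measured site.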

How the data were processed

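RNA was sequenced from 1 SETDB2 and 1 control culture of BHT101 cells. The authors deposited whole-number read counts per gene and FPKM values in 4 tables. Each deposited FPKM equals the count divided by gene length and by 1 constant per library. The submitters' processing notes name TopHat2 2.0.9, Bowtie2 2.0.6, Cuffdiff 2.1.1 and Cufflinks 2.1.1 without a role for each. Counting program, strand setting and genome build: not given in the sources used here. All 58735 genes were found in GENCODE 29, and the 39 HOX genes had the same GRCh38 position and name there.

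Library totals were 34053348 counts for SETDB2 and 33572025 for control. Counts were scaled with TMM factors of 0.995 and 1.005 in that order (edgeR 4.0.16, R 4.3.3), and no test was run because each group held 1 library. DESeq2 1.42.0 gave alternative size factors. Log2 ratios of SETDB2 over control used a prior count of 0.5, and 95% intervals are exact Clopper-Pearson intervals of the ratio of 2 counts. PCR copies are not independent molecules, so intervals and floors (3 counts) cover counting error only. The summed count had to reach 50, and a call needed 2-fold and an interval that excludes equality. The interval method was checked on simulated Poisson counts, the kind of error it assumes. That check does not cover PCR copies or differences between cultures. GC content came from the longest GENCODE transcript. As an alternative only, its trend in the log2 ratio was removed with a lowess fit (fraction 0.3, statsmodels 0.14.6). Ratios, intervals and calls are given without this correction unless GC correction is named. Motifs and pairing were searched in RefSeq and GENCODE sequences (Python 3.11.15).

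HOX genes are given 1 by 1; 1 of them and 3 other genes are not reported here, though list counts and sums include them. Other genes named are those called, the 6 with the highest counts within the clusters, the nearest flanking gene on each side and up to 4 of each list with the largest ratios; further names are examples chosen with values known. The members and gene lists were chosen with earlier results of these data known. Alternatives covered scaling, GC content, count limits, prior count, fold limit, overlapping genes and the top gene of each cluster.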

Additional observations from a re-analysis of the deposited data

How the results depend on the processing

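Of the 52 alternative values computed, 44 kept their direction and stayed within set tolerances, which are wide: 0.2955 on the log2 scale for the median, 1.5 times for a count and the main counting interval for a summed ratio. The number of members called was 0 in each direction under DESeq2 size factors, total counts, GC correction, a 1.5-fold limit and a count limit of 200; with a count limit of 1 it was 1 higher, HOXA10, and with any interval that excludes equality it was 4 higher, an alternative chosen after seeing the data. The HOX median of 0.14 ran from 0.06 at a summed count of 200 or more to 0.21 at 1 or more, and was 0.19 after GC correction. Among members whose span overlaps no other gene, the median and the HOXA sum were both 0.55, because HOXA2 alone was left of the members past the limit and of the HOXA counts. For HOXB the sum of such genes was -0.26 (-1.64 to 1.07), reversed, because HOXB13 with 10 counts in the SETDB2 library and 12 in the control library was its only source of counts; with total counts the HOXB interval was -0.005 to 0.125 and included 0, as did the HOXA value of 0.20 (-0.19 to 0.59) over genes that share no exonic base, an added alternative. HOXC had no counts in genes whose span overlaps no other and gave no value there. Its sum was 0.76 without HOXC8 and -0.17 over genes that share no exonic base, where HOXC8 was the only source of counts. None of the 6 members that overlap no span reached 1 FPKM in both libraries, so the number detected was 0 there; it was 13 at 0.5 FPKM and 13 at 1 CPM. HOXD had 0 counts in the control library and gave no ratio under any setting. The log2 ratio of SETDB2 ran from 1.34 to 1.43. No paired analysis was possible because each group held 1 library. Ratios fell with GC content across the 10234 genes with at least 500 counts (Spearman -0.41 across genes, which are not replicates), and the trend at the members was -0.09 to 0.01.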

Other observations

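Among 65 homeobox factors outside the HOX clusters, 30 were past the count limit, with a median log2 ratio of 0.01. Over all genes past that limit 1.04% were higher and 1.57% lower by the 2-fold rule. Of the 30, 2 were higher by it and none lower. Both were DLX genes, which lie side by side on chromosome 2 and pattern the forebrain and the pharyngeal arches. DLX1 had 162 counts in the SETDB2 library and 67 in the control library, a log2 ratio of 1.26 (0.85 to 1.70), and DLX2 had 131 in the SETDB2 library and 47 in the control library, 1.46 (0.98 to 1.99). LHX6, a LIM homeobox gene, was at 0.91 (0.34 to 1.52), IRX5 at 0.91 (0.46 to 1.38) and SIX4 at 0.87 (0.58 to 1.17). Over the 153 protein-coding genes of the deposited Homeobox family that are no HOX cluster members, 44 were past the limit, 2 were higher and 1 was lower by the rule. The deposited annotation put 38 of the 39 HOX genes in that family, and HOXC11 was listed under another heading.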
